A study of Mus musculus with 16 samples.

Results

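The 10 genes described here, Lhx1, Lhx5, Pax2, Pax8, Evx1, En1, Lbx1, Tlx3, Lmx1b and Gata3, encode transcription factors that mark classes of spinal interneurons. They were found by gene symbol in a table of read counts for 46320 genes, and all 10 passed the filter on low counts that left 19964 genes for testing. RNA was sequenced from cultured primary mouse motoneurons grown in microfluidic chambers, where cell bodies and dendrites lie in one compartment and axons grow through channels into another. Lumbar spinal cords were taken at embryonic day 13 from Hnrnpr-/- mice, which lack exons 1 to 5 of Hnrnpr after CRISPR/Cas9 deletion, or from +/+ mice, and cells were selected by panning with an antibody against the neurotrophin receptor p75NTR. The 4 groups of 4 libraries were +/+ somatodendritic, Hnrnpr-/- somatodendritic, +/+ axonal and Hnrnpr-/- axonal. All groups received CNTF (5 ng/ml) on both sides of the chamber and BDNF (20 ng/ml) on the axonal side. The knockout line had been backcrossed to C57Bl/6 and carries the deletion in every cell, neurons and other cells of the culture alike. hnRNP R is an RNA-binding protein.

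During development of the spinal cord, progenitors along the dorsoventral axis give rise to motoneurons and to separate classes of interneurons, and each class switches on its own combination of transcription factors after leaving the cell cycle. Lhx1 and Lhx5 are LIM-homeodomain factors of several, mostly inhibitory, classes, in which Pax2 and Pax8 act in the choice of a GABAergic or glycinergic fate. Evx1, En1 and Gata3 mark the ventral classes V0, V1 and V2b, Lbx1 marks several dorsal classes, among them late-born association neurons, and Tlx3 with Lmx1b marks excitatory dorsal neurons. Lhx1 is not restricted to interneurons, because motoneurons of the lateral part of the lateral motor column also use it, and Tlx3 is also active in sensory neurons.

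The coding sequences were examined because homeobox genes resemble each other and short shared stretches can blur read counts. Part of the third helix of the homeodomain, the helix that lies in the major groove of DNA, is encoded by the following stretch in the 7 homeodomain members. It is the in-frame stretch of 24 bases of Lhx1 with the most bases identical in the nearest stretches of the other 6, and it is given 5′ to 3′ on the coding strand of GRCm39, with capitals at the 12 positions that are identical in all 7.
Lhx1: TGGTTcCAgAAtcgacGctccAAg
Lhx5: TGGTTtCAgAAccgaaGgtccAAa
Evx1: TGGTTtCAgAAccggcGcatgAAg
En1: TGGTTcCAaAAcaagcGtgccAAg
Lbx1: TGGTTcCAgAAccggcGcgccAAg
Tlx3: TGGTTcCAaAAtcggaGgaccAAg
Lmx1b: TGGTTtCAgAAccaaaGagcaAAg

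The stretches lie in coding exons, at chr11:84411249-84411272 on the minus strand for Lhx1, chr5:120574376-120574399 on the plus strand for Lhx5, chr6:52293521-52293544 on the plus strand for Evx1 and chr1:120534787-120534810 on the plus strand for En1. Lbx1 held it at chr19:45222485-45222508, Tlx3 at chr11:33152434-33152457 and Lmx1b at chr2:33456897-33456920, all 3 on the minus strand. Gata3 (chr2:9861889-9892762, minus strand) is a zinc-finger factor, and Pax2 (chr19:44735040-44826708, plus strand) and Pax8 (chr2:24310563-24365611, minus strand) bind DNA through a paired domain, and none of these 3 held the first 12 positions as TGGTTNCANAAN (searched in frame on the coding strand only), which 207 of 22244 coding genes held (0.931%). The longest run of identical bases between any pair of members was 27 bases, between Pax2 and Pax8, and Lhx1 and Lhx5 shared at most 20, all shorter than the 100-base reads.

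The libraries held between 22024636 and 34863923 counts each. Hnrnpr, the deleted gene, was at 204 ± 27.1 CPM (counts scaled to the size of the library; SD, n = 4) in +/+ and 0.861 ± 0.305 in Hnrnpr-/- somatodendritic libraries, and at 212 ± 141 and 0.876 ± 0.222 in the axonal libraries. The labelled cell type was compared with 15 motoneuron genes. Mnx1, the homeobox gene that defines motoneurons, had 0 counts in all 8 somatodendritic libraries, which allows up to 0.0905 to 0.141 CPM per library (3 counts, counting error only). Isl2 had 0 to 5 counts there, Chat, the enzyme of acetylcholine synthesis, was at 0.657 to 1.31 CPM, and Ngfr, which encodes p75NTR, at 3.25 to 7.78 CPM. Among genes of other transmitters, Gad1 (GABA synthesis) was at 238 to 398 CPM, Slc6a5 (glycine uptake) at 143 to 401 CPM and Slc17a6 (vesicular glutamate transport) at 333 to 491 CPM. Isl1 (3.89 to 8.03 CPM), Lhx3 (3.59 to 5.22 CPM), Slc18a3, which encodes the vesicular acetylcholine transporter (3.90 to 11.6 CPM), and Slc5a7, for choline uptake (2.72 to 7.74 CPM), were read in every somatodendritic library. Mnx1 was thus absent and Isl2 at or near the floor, while the other motoneuron markers named here were present, at means of 0.350 (Chat) to 3.03 (Slc18a3) CPM per kb of exon, against 57.9 for Gad1, 30.1 for Slc6a5 and 95.9 for Slc17a6. In such bulk RNA, fewer cells of a type and less RNA of a gene per cell cannot be told apart.

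In the somatodendritic libraries, Pax8, Lhx1 and Lhx5 were the most abundant members per kilobase of exon. On that scale, Pax8 was at 34.5 ± 3.57 CPM (SD, n = 8 libraries of both genotypes), Lhx1 at 21.3 ± 3.03, Lhx5 at 13.03 ± 1.75, Lbx1 at 7.40 ± 0.968 and Lmx1b at 6.11 ± 1.84 CPM per kb. Pax2 followed at 2.20 ± 0.516, Gata3 at 2.11 ± 0.509, Tlx3 at 1.29 ± 0.394, En1 at 0.511 ± 0.170 and Evx1 at 0.443 ± 0.209 CPM per kb. The ranges over the 8 libraries separated Pax8 from Lhx1, Lhx1 from Lhx5, Lhx5 from Lbx1, Lmx1b from Pax2 and Tlx3 from En1. They overlapped between Lbx1 and Lmx1b, between Pax2 and Gata3, between Gata3 and Tlx3 and between En1 and Evx1, and Pax2 was above Gata3 in only 4 of 8 libraries. On the same per-kilobase scale, the motoneuron genes Isl1 and Slc18a3 (vesicular acetylcholine transport) were at 1.95 and 3.03 CPM per kb, while Gfra1 and Ret, receptor components for GDNF that other neurons also carry, were at 28.8 and 12.6.

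**Figure D1:**
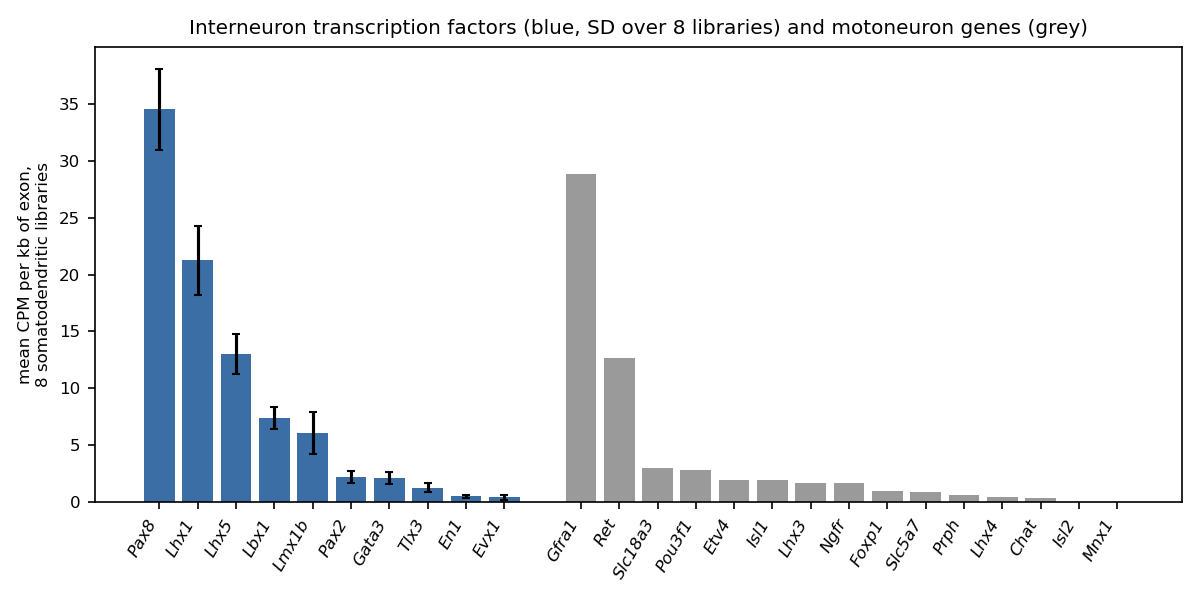
Mean level per kilobase of exon (CPM per kb, linear axis from 0) over the 8 somatodendritic libraries, for the 10 interneuron transcription factors (blue bars, with SD) and 15 motoneuron genes (grey bars, without error bars). Pax8 at 34.5 CPM per kb stood above every motoneuron gene, Lhx1 at 21.3 above all but Gfra1, and Mnx1 was at 0.

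The first comparison asked how the RNA of the axonal compartment differed from that of the somatodendritic compartment. In +/+ cultures, 6 of the 10 members (Lhx1, Lhx5, Pax2, Pax8, En1 and Lmx1b) were lower in the axonal libraries by the edgeR quasi-likelihood test and none was higher. Of all genes tested, 27.4% were called lower and 30.1% higher in this comparison. En1 and Evx1 passed the low-count filter only through the somatodendritic libraries and were not among the genes tested from the axonal libraries alone, so the filter favoured a lower axonal value for both. Of the other 8 members, 5 were called lower in each genotype. The median log2 fold change (axonal over somatodendritic) of the 10 members was -1.97, against 0.07 for all genes tested. In Hnrnpr-/- cultures 5 of the 10 (Lhx1, Lhx5, Pax2, Pax8 and Lmx1b) were lower and none higher, where 26.8% of all genes were called lower and 27.5% higher, and the medians were -1.87 and 0.00. This fit does not use that both compartments of a culture belong together. With the culture as a block, 7 members were lower in each genotype, with Lbx1 added in +/+ and En1 and Gata3 in Hnrnpr-/-. Of all genes, 4989 of 18679 were lower there in +/+ and 5171 of 18690 in Hnrnpr-/-. Without overlap between the axonal and somatodendritic libraries were 7 members in +/+ (27.6% of all genes were lower without overlap) and 5 in Hnrnpr-/- (27.3%). The members without overlap in +/+ include En1, for which the filter favoured this outcome, and those in Hnrnpr-/- include neither En1 nor Evx1.

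**Figure D2:**
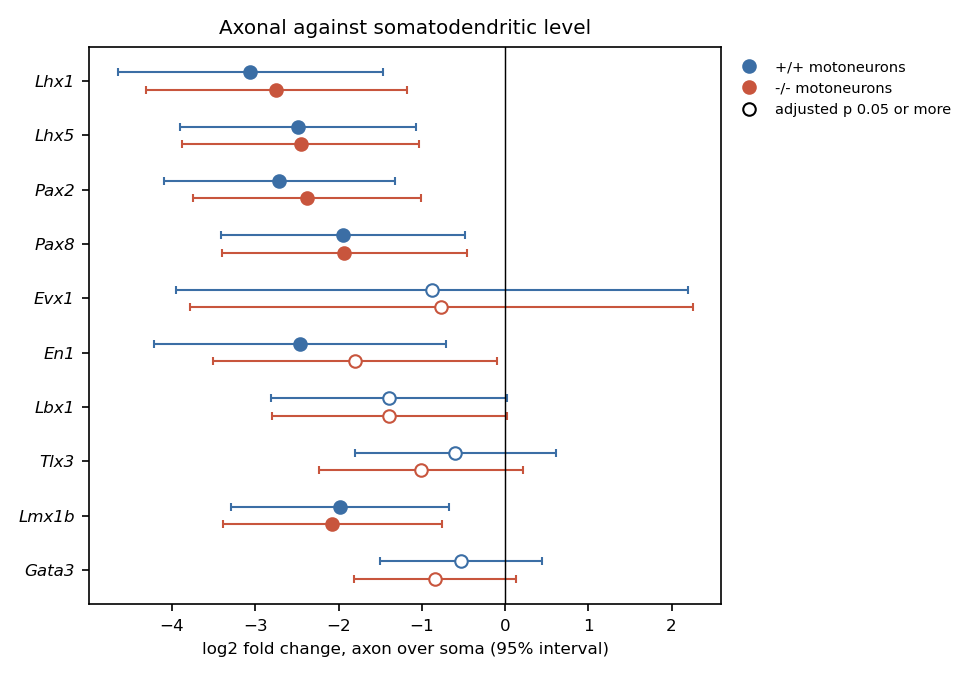
log2 fold change of each member, axonal over somatodendritic, with its 95% interval from edgeR, in +/+ (blue) and Hnrnpr-/- (red) cultures. Filled points have an adjusted p under 0.05, open points do not; all 20 points lie below 0, from -3.06 for Lhx1 to -0.53 for Gata3, both in +/+.

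Lhx1 had the lowest fold change of the members in both genotypes. It was at 87.8, 92.7, 78.1 and 93.5 CPM in the +/+ somatodendritic libraries and at 16.1, 17.3, 2.21 and 6.64 CPM in the +/+ axonal libraries, in the order of replicates 1 to 4. In Hnrnpr-/- cultures it was at 113, 75.9, 75.4 and 89.8 CPM in the somatodendritic and at 34.6, 12.02, 1.59 and 4.44 CPM in the axonal libraries. No axonal library reached the lowest somatodendritic one, and within each compartment the genotypes overlapped. The log2 fold change between compartments was -3.06 ± 0.75 (SE; edgeR adjusted p = 0.00303) in +/+ and -2.75 ± 0.74 (edgeR adjusted p = 0.00591) in Hnrnpr-/-. With the axonal level of each culture expressed as a percent of its own somatodendritic level, the median over 8 cultures was 11.5%, from 2.11% to 30.5%.

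Lhx5, the close relative of Lhx1, lies on another chromosome and was present at a lower level per kilobase. Its +/+ values were 35.4, 40.9, 36.4 and 29.8 CPM in the somatodendritic and 7.22, 7.95, 2.31 and 7.92 CPM in the axonal libraries. Hnrnpr-/- cultures had 43.6, 33.9, 35.3 and 30.0 CPM in the somatodendritic and 16.9, 6.65, 0.960 and 1.43 CPM in the axonal libraries. The compartments did not overlap in either genotype. Between compartments Lhx5 differed by -2.49 ± 0.67 on the log2 scale in +/+ (edgeR adjusted p = 0.00554) and by -2.46 ± 0.67 in Hnrnpr-/- (edgeR adjusted p = 0.00643).

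Pax2, which marks most inhibitory interneurons, showed the same direction at a lower level. In +/+ it was at 9.99, 11.9, 9.23 and 9.90 CPM in the somatodendritic and 0.886, 2.38, 1.01 and 1.96 CPM in the axonal libraries. The Hnrnpr-/- values were 14.4, 7.45, 7.16 and 9.52 CPM in the somatodendritic and 4.39, 2.24, 0.270 and 0.464 CPM in the axonal libraries. Every axonal value lay below every somatodendritic value and the log2 fold changes were -2.71 ± 0.65 in +/+ and -2.38 ± 0.64 in Hnrnpr-/- (edgeR adjusted p = 0.00277 and 0.00623).

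Pax8, a paired-box relative of Pax2, had the highest mean level per kilobase of the members in both compartments. Somatodendritic libraries held 81.4, 99.2, 91.4 and 77.0 CPM in +/+ and 104, 81.7, 88.8 and 85.9 CPM in Hnrnpr-/-. Axonal libraries held 26.8, 33.9, 6.60 and 23.2 CPM in +/+ and 62.4, 23.7, 3.48 and 4.71 CPM in Hnrnpr-/-. The compartments did not overlap, although the axonal library of Hnrnpr-/- replicate 1 came close to the somatodendritic range. The log2 fold change was -1.95 ± 0.69 in +/+ (edgeR adjusted p = 0.0253) and -1.93 ± 0.69 in Hnrnpr-/- (edgeR adjusted p = 0.0275). The call was lost in +/+ without somatodendritic replicate 2 or axonal replicate 3 or 4 (edgeR adjusted p from 0.0523 to 0.0723), and in Hnrnpr-/- without somatodendritic replicate 1, without axonal replicate 2, 3 or 4, or in a fit of only these 2 groups (edgeR adjusted p from 0.0546 to 0.0768). With the culture as a block the log2 fold change was -2.10 ± 0.40 in +/+ and -2.77 ± 0.76 in Hnrnpr-/- (edgeR adjusted p = 0.00477 and 0.0227). A long noncoding RNA on the opposite strand, Gm13415, lies inside Pax8 and had 1062 counts over all libraries (4.53% of the count of Pax8), and the library kit does not mark strand, so reads from the overlap cannot be assigned to one of them.

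Evx1 and En1, the markers of ventral V0 and V1 neurons, were the members with the fewest reads. En1 was at 1.18, 1.76, 1.90 and 0.798 CPM in the +/+ somatodendritic and 0.511, 0.189, 0.195 and 0.122 CPM in the +/+ axonal libraries. Its Hnrnpr-/- values were 1.65, 0.736, 1.09 and 1.33 CPM in the somatodendritic and 1.13, 0.0932, 0.0300 and 0.0995 CPM in the axonal libraries, the last 3 from 3, 1 and 3 counts. Only the axonal library of Hnrnpr-/- replicate 1, with 39 counts, reached the somatodendritic range. The log2 fold change of En1 in +/+ was -2.46 ± 0.82 (edgeR adjusted p = 0.0191), but En1 was tested only because of its somatodendritic reads, which favours this direction, and the call was lost without axonal replicate 3 or 4 (edgeR adjusted p = 0.0526 and 0.0531). In Hnrnpr-/- the log2 fold change was -1.80 ± 0.80 (edgeR adjusted p = 0.0690), and it passed the threshold by DESeq2 (-1.84, adjusted p = 0.0408) but not by DESeq2 with its prior on fold changes (-1.55, adjusted p = 0.0536), and it passed with the culture as a block (-2.63 ± 0.77, edgeR adjusted p = 0.0285) and with a block shared by both genotypes (-2.45, edgeR adjusted p = 0.0128). It passed without axonal replicate 1 as well, where the remaining 3, 1 and 3 axonal counts leave a fitted value that depends on the prior count.

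Evx1 was read in the somatodendritic libraries at 1.15, 0.900, 1.28 and 0.610 CPM in +/+ and at 2.18, 0.866, 2.22 and 1.03 CPM in Hnrnpr-/-. The axonal counts were 0, 72, 5 and 0.5 in +/+ and 120, 0, 0 and 6 in Hnrnpr-/-. Axonal Evx1 therefore came almost entirely from 1 library of each genotype, at 1.95 CPM in +/+ replicate 2 and 3.49 CPM in Hnrnpr-/- replicate 1, and these 2 lay above all 4 somatodendritic libraries of +/+. A count of 0 allows up to 0.102 CPM in +/+ axonal replicate 1, 0.0932 CPM in Hnrnpr-/- replicate 2 and 0.0900 CPM in Hnrnpr-/- replicate 3. Its opposite-strand neighbour Evx1os, which overlaps Evx1 in part, had 79 counts in the axonal library of Hnrnpr-/- replicate 1 and 0 in the other 7 axonal libraries. The compartment difference of Evx1 did not pass the test in +/+ (log2 fold change -0.88 ± 1.44, edgeR adjusted p = 0.621) or in Hnrnpr-/- (-0.76 ± 1.42, edgeR adjusted p = 0.668), and it passed in Hnrnpr-/- without axonal replicate 1 (-4.53, edgeR adjusted p = 0.0238), where the other 3 axonal libraries held 0, 0 and 6 counts and the fitted value depends on the prior count. With the culture as a block the difference was larger, at -2.83 ± 1.38 in +/+ and -2.74 ± 1.40 in Hnrnpr-/-. It passed in neither (edgeR adjusted p = 0.121 and 0.141).

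Gata3, the zinc-finger factor of V2b neurons, was not called between compartments in either genotype. It was at 9.17, 8.46, 9.07 and 5.21 CPM in +/+ somatodendritic and 10.7, 2.24, 3.12 and 6.12 CPM in +/+ axonal libraries. In Hnrnpr-/- it was at 11.4, 5.80, 7.62 and 9.01 CPM in the somatodendritic and 8.08, 2.73, 2.85 and 5.14 CPM in the axonal libraries. The compartments overlapped in both genotypes, and the axonal value was the lower one in 6 of 8 cultures. The log2 fold change was -0.53 (95% interval -1.50 to 0.44) in +/+ and -0.85 (-1.82 to 0.13) in Hnrnpr-/-, neither past the threshold (edgeR adjusted p = 0.335 and 0.130). In Hnrnpr-/- it passed with the culture as a block (-0.89 ± 0.24, edgeR adjusted p = 0.0226), with a block shared by both genotypes (-0.94, edgeR adjusted p = 0.0325) and without axonal replicate 1 (-1.25, edgeR adjusted p = 0.0349).

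The dorsal factor Lbx1 was at 17.7, 20.3, 16.6 and 17.8 CPM in +/+ and 14.9, 21.0, 18.6 and 22.4 CPM in Hnrnpr-/- somatodendritic libraries. The axonal libraries held 7.83, 7.36, 1.07 and 11.2 CPM in +/+ and 15.3, 10.1, 0.960 and 3.08 CPM in Hnrnpr-/-. All 4 +/+ axonal values lay below the somatodendritic ones, while in Hnrnpr-/- replicate 1 the axonal value (15.3 CPM) was above the somatodendritic one (14.9 CPM). The log2 fold change was -1.40 ± 0.66 in +/+ (edgeR adjusted p = 0.0842) and -1.39 ± 0.66 in Hnrnpr-/- (edgeR adjusted p = 0.0888). With the culture as a block it was -1.69 ± 0.53 in +/+ (edgeR adjusted p = 0.0313), which passes, and -1.91 ± 0.74 in Hnrnpr-/- (edgeR adjusted p = 0.0686), which does not. With a block shared by both genotypes it passed in +/+ (-1.67, edgeR adjusted p = 0.0421) and in Hnrnpr-/- (-1.78, edgeR adjusted p = 0.0368). It also passed without both axonal libraries numbered 3, which held the fewest reads of the members in their groups (-1.06 in +/+ and -1.04 in Hnrnpr-/-, edgeR adjusted p = 0.0278 and 0.0325), in +/+ without Hnrnpr-/- axonal replicate 3 (edgeR adjusted p = 0.0398), and in Hnrnpr-/- without axonal replicate 1 (-2.04, edgeR adjusted p = 0.0217).

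Lmx1b and Tlx3, factors of excitatory dorsal neurons, were both below their somatodendritic level in each culture, and Lmx1b was called in both genotypes. Lmx1b was at 33.2, 38.6, 25.9 and 56.4 CPM in +/+ somatodendritic and 7.97, 6.92, 2.11 and 21.8 CPM in +/+ axonal libraries, and at 28.4, 25.4, 29.8 and 31.4 CPM and 11.9, 10.4, 1.92 and 3.02 CPM in the Hnrnpr-/- ones. Its compartments did not overlap, and the log2 fold change was -1.99 ± 0.61 in +/+ (edgeR adjusted p = 0.0125) and -2.07 ± 0.62 in Hnrnpr-/- (edgeR adjusted p = 0.0108). Tlx3 was at 6.79, 7.47, 4.97 and 11.2 CPM in +/+ somatodendritic and 4.73, 4.35, 0.552 and 10.5 CPM in +/+ axonal libraries, and at 4.49, 6.71, 5.70 and 8.19 CPM and 3.84, 4.60, 1.80 and 2.22 CPM in the Hnrnpr-/- ones. Its ranges overlapped, its axonal value was the lower one in all 8 cultures, and its log2 fold change did not pass the test in +/+ (-0.60, 95% interval -1.81 to 0.61, edgeR adjusted p = 0.383) or in Hnrnpr-/- (-1.01, -2.23 to 0.21, edgeR adjusted p = 0.150). In Hnrnpr-/- it passed in a fit of only these 2 groups (-0.95, edgeR adjusted p = 0.0467) and without +/+ axonal replicate 3 (-0.97, edgeR adjusted p = 0.0428). The difference between Lmx1b and Tlx3 was not tested. Replicate 4 of +/+ had the highest value of both genes in each compartment. C130021I20Rik, on the opposite strand, begins at position 33531205 of chromosome 2, just inside the end of Lmx1b at 33531219 (GRCm39), and held 22568.5 counts over all libraries against 8674.33 for Lmx1b.

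**Figure D3:**
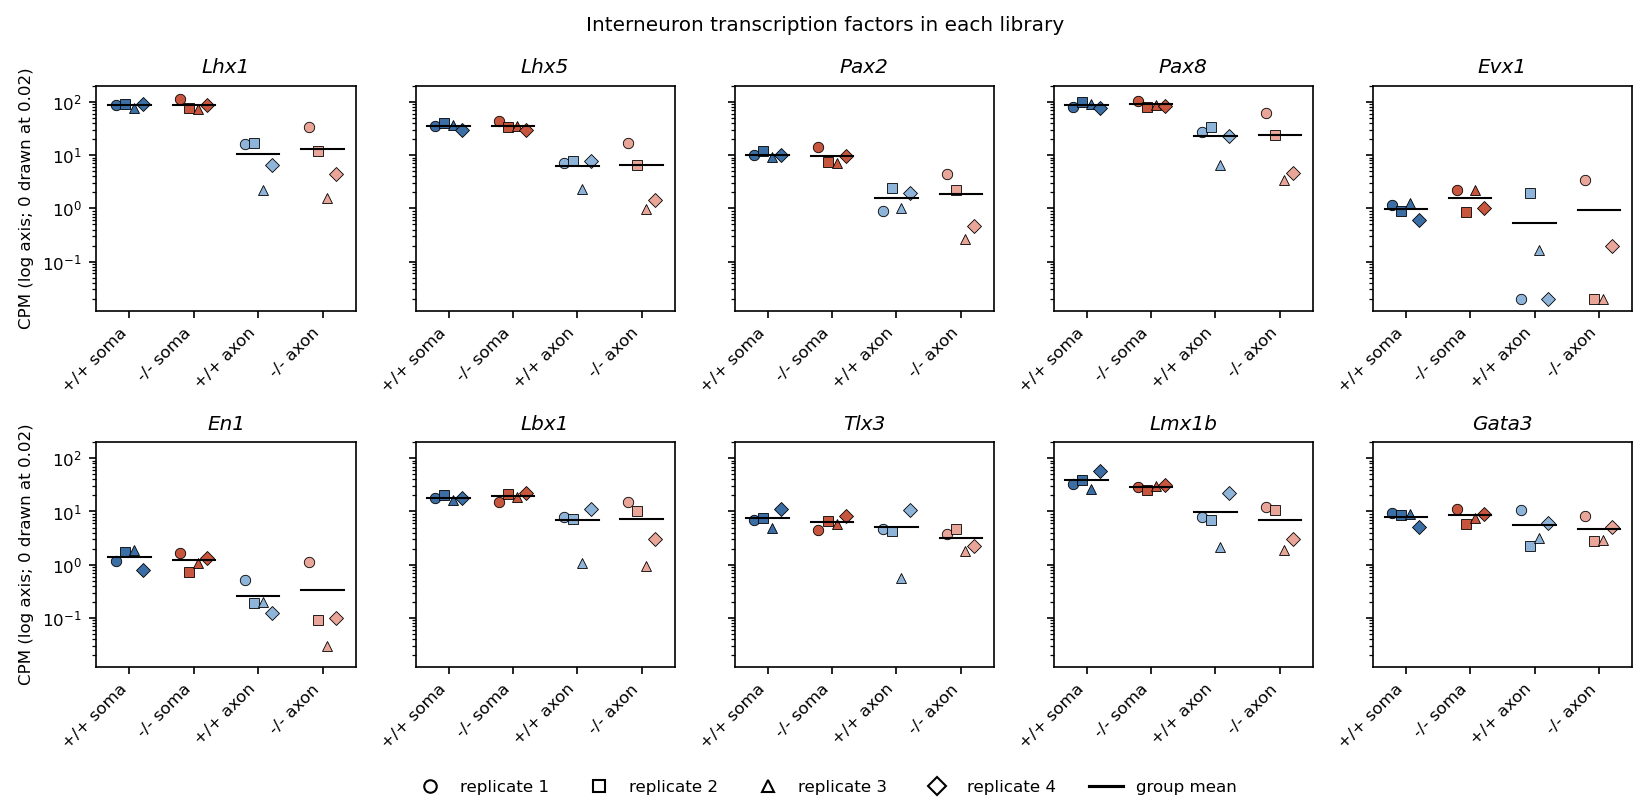
CPM of each member in each of the 16 libraries (log axis, values of 0 drawn at 0.02), with the replicates as symbols and the group mean as a line. The axonal values of Lhx1, Lhx5, Pax2, Pax8 and Lmx1b lie below all their somatodendritic values, the axonal values spread over more than the somatodendritic ones, and the square and triangle of Hnrnpr-/- Evx1 lie at 0.

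The axonal libraries differed widely among themselves, and most members were high or low in the same libraries, with exceptions such as Gata3, whose lowest axonal value (2.24 CPM) was in +/+ replicate 2. Summed over the 10 members, the somatodendritic libraries held 275 to 322 CPM in +/+ and 259 to 338 CPM in Hnrnpr-/-, whereas the axonal libraries held 19.3 to 89.5 CPM and 13.9 to 162 CPM. The axonal library of Hnrnpr-/- replicate 1 was the highest of the 8 axonal libraries for 7 of the 10 members, and that of Hnrnpr-/- replicate 3 the lowest for 7, besides Evx1, for which several axonal libraries shared a count of 0. The common dispersion of all genes was 0.303 in the axonal and 0.0535 in the somatodendritic libraries. Per kilobase, the axonal order again began with Pax8 (8.99 ± 7.60 CPM per kb, n = 8) and Lhx1 (2.85 ± 2.64), then Lbx1 (2.82 ± 2.03) and Lhx5 (2.35 ± 1.89). The ranges of all neighbours in the axonal order overlapped, but Pax8 was above Lhx1 in 8 of 8 axonal libraries.

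The second comparison asked whether loss of hnRNP R changed the members in either compartment. In the somatodendritic libraries, 0 of the 10 members passed the test by edgeR and 0 had an unadjusted p under 0.05. Of all genes tested, 0.00501% were called (1 gene, Hnrnpr itself), and 0.601% had an unadjusted p under 0.05. The log2 fold changes (Hnrnpr-/- over +/+) ran from -0.42 for Lmx1b to 0.67 for Evx1, with a median of 0.0070. Lhx1 averaged 88.0 ± 7.08 CPM in +/+ and 88.6 ± 17.8 in Hnrnpr-/- (SD, n = 4 each), Lhx5 35.6 ± 4.54 and 35.7 ± 5.73 CPM, and Pax8 87.3 ± 10.0 and 90.0 ± 9.57 CPM. None of the members separated the genotypes without overlap, as 1.58% of all genes did.

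The precision of that result depended on the libraries in the fit, because the fit of all 16 took up the wide axonal spread. There the standard errors ran from 0.45 to 1.42 on the log2 scale, and the 95% interval of Lhx1 was -1.45 to 1.47. In a fit of the 8 somatodendritic libraries alone, which also called 0 members, the standard errors ran from 0.13 to 0.38, and the intervals were -0.31 to 0.35 for Lhx1, -0.31 to 0.34 for Lhx5, -0.22 to 0.33 for Pax8 and -0.23 to 0.42 for Lbx1. The lowest unadjusted p there was 0.0732, for Lmx1b (edgeR log2 fold change -0.41, 95% interval -0.86 to 0.05, adjusted p = 0.999), whose means were 38.5 ± 13.01 CPM in +/+ and 28.8 ± 2.55 CPM in Hnrnpr-/-. Replicate 4 of +/+, at 56.4 CPM, was the highest Lmx1b value of the 8.

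In the axonal libraries, too, 0 of the 10 members were called and 0 had an unadjusted p under 0.05, where 0.01% of all genes were called (2 genes) and 3.88% had an unadjusted p under 0.05. The log2 fold changes ran from -0.69 for Tlx3 (95% interval -1.91 to 0.53) to 0.78 for Evx1 (-2.27 to 3.84). Lhx1 was at 10.6 ± 7.32 CPM in +/+ and 13.2 ± 14.9 in Hnrnpr-/-, and Pax8 at 22.6 ± 11.6 and 23.6 ± 27.5 CPM (SD, n = 4 each). No member separated the genotypes without overlap, against 0.606% of all genes. In this fit of all 16 libraries, the intervals reached beyond -1 on the log2 scale for all 10 members and beyond 1 for all but Tlx3, Lmx1b and Gata3. A fit of the axonal libraries alone tested 8 members, without En1 and Evx1, and called none. Its standard errors ran from 0.57 to 0.91 and its intervals were wider, with -1.78 to 2.35 for Lhx1, -2.22 to 1.20 for Lmx1b and -1.52 to 1.04 for Gata3. There only the interval of Tlx3 (-2.29 to 0.91) did not reach beyond 1.

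Whether the compartment difference itself changed with genotype was tested by the interaction of both factors. None of the 10 members passed, none had an unadjusted p under 0.05, and of all genes tested 0 were called (0%), with 1.33% at an unadjusted p under 0.05 by edgeR. The interaction ran from -0.41 for Tlx3 to 0.66 for En1 on the log2 scale, with standard errors from 0.64 to 1.98. This fit does not use that both compartments of a culture belong together. With a term for each culture, which was added after seeing the data, the interaction ran from -0.70 for Pax8 to -0.042 for Tlx3 (standard errors 0.55 to 2.53), with 0 members called or at an unadjusted p under 0.05 and, over all genes, 0 called and 220 at an unadjusted p under 0.05 by edgeR.

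**Figure D4:**
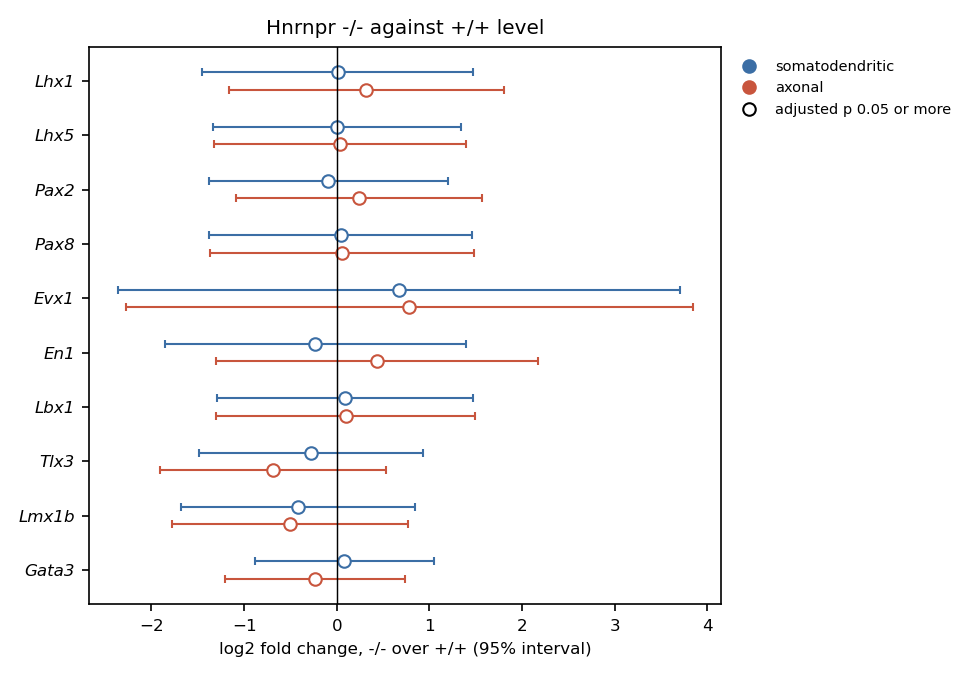
log2 fold change of each member, Hnrnpr-/- over +/+, with its 95% interval from the edgeR fit of all 16 libraries, in the somatodendritic (blue) and axonal (red) compartment. All points are open, since none passed the adjusted threshold, and every interval crosses 0.

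Other genes of the same tissue were compared by lists. Of 32 further interneuron transcription factors, 31 were tested, and 17 were lower and none higher in +/+ axonal libraries (median log2 fold change -1.51), and 22 were lower and 1 higher in Hnrnpr-/- (median -2.22), where 27.4% and 26.8% of all genes were lower. Nr5a2, Evx2, Wt1, Pax5 and Sim1 were tested only because of their somatodendritic reads, and of the other 26 genes 15 were lower in +/+ and 19 lower and 1 higher in Hnrnpr-/-. Among these 5, Wt1, a factor of some dI6 neurons, and Sim1 of V3 neurons each had 0 to 4 counts in the +/+ axonal libraries, and in the Hnrnpr-/- axonal libraries Nr5a2 had 0 to 1 and Evx2, a relative of Evx1, 0 to 3. Fitted fold changes of such genes depend on the prior count and are not given. Lhx2 was the 1 that was higher in Hnrnpr-/- (1.84 ± 0.60, edgeR adjusted p = 0.0184). The most abundant of this list in the somatodendritic libraries were Skor1 at a mean of 83.3 CPM, Bcl11a at 75.6 CPM and Prrxl1 at 63.9 CPM. Skor1 and Bcl11a fell with the members (in +/+ -2.46 ± 0.73 and -2.17 ± 0.41, edgeR adjusted p = 0.0100 and 0.000586), and Prrxl1, which also belongs to sensory neurons, did not pass (-0.98 ± 0.70, edgeR adjusted p = 0.243).

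Of the transmitter genes tested, all 5 for GABA and glycine were lower in +/+ axonal libraries and 4 of 5 in Hnrnpr-/-, against 27.4% and 26.8% of all genes, among them Slc6a5 (-3.85 ± 0.91 in +/+, edgeR adjusted p = 0.00255), while Gad1, with -2.41 ± 0.83 in +/+ (edgeR adjusted p = 0.0218), was the 1 that missed the threshold in Hnrnpr-/- (-1.92 ± 0.81, edgeR adjusted p = 0.0573). The glutamate transporter gene Slc17a6 was lower in both (-2.67 ± 0.75 in +/+, edgeR adjusted p = 0.00702, and -2.44 ± 0.74 in Hnrnpr-/-, edgeR adjusted p = 0.0119). Slc17a8, for the same step in other neurons and the only further glutamate gene tested, was called in neither (-0.65 ± 0.61 and 0.059 ± 0.61, edgeR adjusted p = 0.377 and 0.944). Of 13 motoneuron genes tested, 7 were lower and 1 higher in +/+ (27.4% and 30.1% of all genes), and 7 were lower and 2 higher in Hnrnpr-/- (26.8% and 27.5%). Chat was among those called lower in both but was tested only because of its somatodendritic reads, with 0 to 2 axonal counts in +/+ and 0 to 8 in Hnrnpr-/-. Slc18a3 was lower in +/+ (-3.88 ± 0.85, edgeR adjusted p = 0.00154) and Lhx4 in Hnrnpr-/- (-2.83 ± 0.56, edgeR adjusted p = 0.000849), and Foxp1, which many neurons use, was higher in both (1.30 ± 0.37 and 1.10 ± 0.37, edgeR adjusted p = 0.00818 and 0.0207). Etv4, a factor of some motor pools, was higher in Hnrnpr-/- (0.93 ± 0.29, edgeR adjusted p = 0.0137). Gfra1 and Ret fell in +/+ (-2.45 ± 0.50 and -2.66 ± 0.78, edgeR adjusted p = 0.000980 and 0.00919).

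Progenitor transcription factors, which act before the interneuron factors, were more often higher than lower. Of 16 tested, 10 were higher and 1 lower in +/+ axonal libraries (median log2 fold change 2.32), against 30.1% and 27.4% of all genes, and 7 were higher and 1 lower in Hnrnpr-/- (median 1.63), against 27.5% and 26.8%. Some of this list had few somatodendritic reads, with 1 to 9 counts for Neurog2 and 1 to 24 for Prdm13. For such genes the low-count filter favoured a higher axonal value, and the numbers were not redone without them. Pax6 was higher in +/+ (2.24 ± 0.54, edgeR adjusted p = 0.00289), and the more abundant Olig2 (1.19 ± 0.60, edgeR adjusted p = 0.104) and Dbx2 (1.12 ± 0.48, edgeR adjusted p = 0.0543) did not pass. The 1 lower gene was Olig3 in both, which was tested only because of its somatodendritic reads. Astrocyte and radial glia genes rose in 5 of 8 cases in +/+ and 3 of 8 in Hnrnpr-/-, the latter count near the share of all genes, such as Fabp7 (2.10 ± 0.29, edgeR adjusted p = 7.33e-05) and Slc1a3 (0.78 ± 0.26, edgeR adjusted p = 0.0180) in +/+, while Aldoc, the most abundant of them, did not (0.14 ± 0.39, edgeR adjusted p = 0.779). Their summed level was 1428 to 2216 CPM in +/+ somatodendritic and 3064 to 5904 CPM in +/+ axonal libraries, and 1676 to 2741 CPM and 2696 to 4915 CPM in Hnrnpr-/-. The progenitor factors summed to 64.7 to 119 CPM and 115 to 394 CPM in the same +/+ groups, and the part of these shifts in the members' difference was not tested. No list had a gene called between the genotypes in either compartment.

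**Figure D5:**
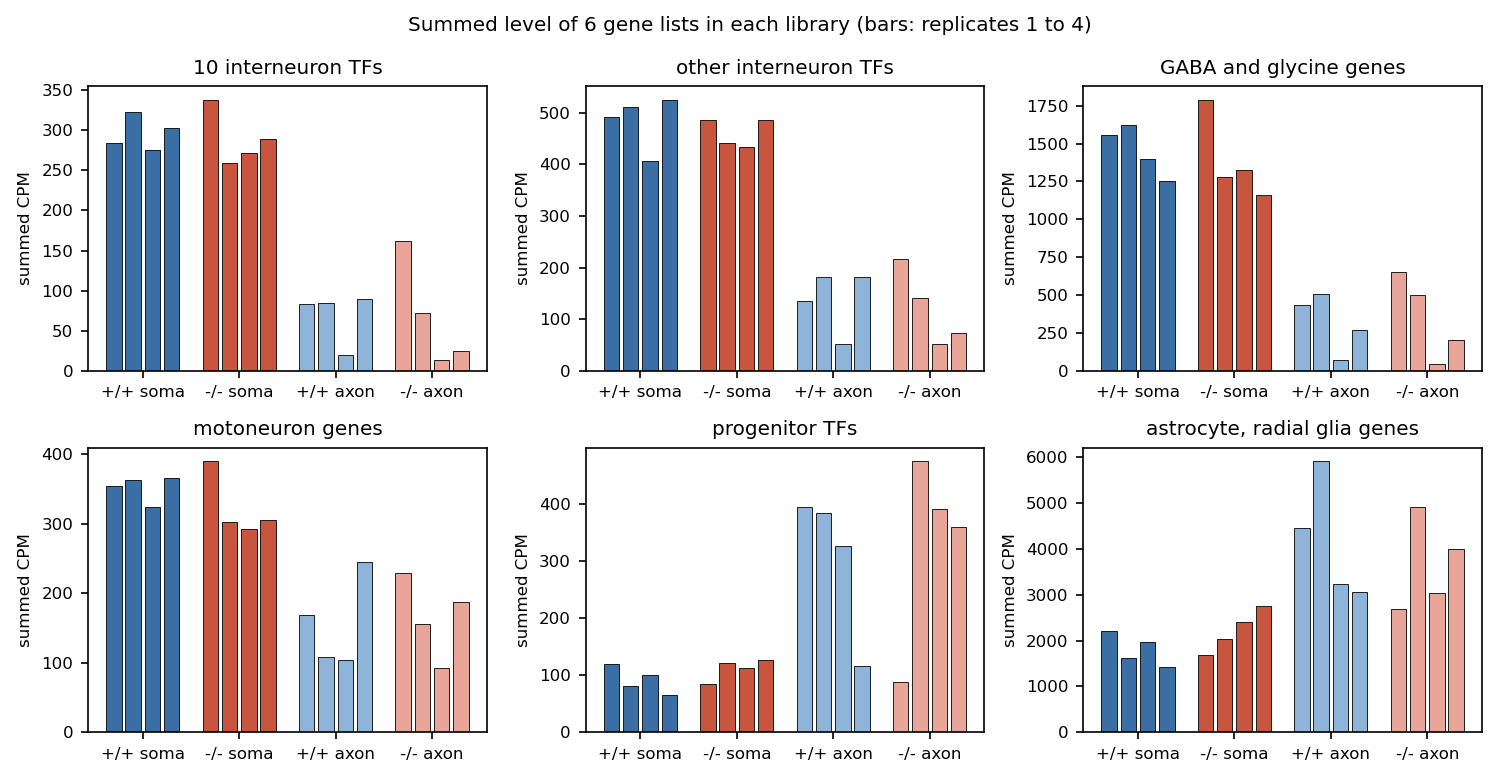
Summed CPM of 6 gene lists in each of the 16 libraries (linear axes from 0, 1 bar per library, replicates 1 to 4 from left to right in each group). The members, the other interneuron factors and the GABA and glycine genes are low in the axonal libraries, lowest in replicate 3 of both genotypes, while the progenitor and astrocyte lists are higher there than in most somatodendritic libraries, except for the progenitor list in Hnrnpr-/- replicate 1 (87.8 CPM).

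The libraries that stood apart for the members also stood apart for these lists. Axonal replicate 1 of Hnrnpr-/-, with the highest summed level of the members (162 CPM), had the highest sum of GABA and glycine genes (655 CPM) and the lowest of the progenitor factors (87.8 CPM) among the 8 axonal libraries. Axonal replicate 3 of Hnrnpr-/-, with the lowest members' sum (13.9 CPM), had the lowest sum of GABA and glycine genes (42.9 CPM) and of motoneuron genes (92.8 CPM), and 391 CPM of progenitor factors. Sensory neuron genes (24.01 to 117 CPM), oligodendroglia and Schwann cell genes (26.1 to 828 CPM), fibroblast genes (185 to 2386 CPM) and microglia genes (0.630 to 296 CPM) varied over these 8 libraries as well, and their part in the members' levels was not tested. Of 8 sensory neuron genes tested, 4 were higher and 2 lower in +/+ axonal libraries, where 30.1% of all genes were higher and 27.4% lower. Sensory genes with few somatodendritic or few axonal reads, for which the filter favours a direction, were not set aside. Of 7 fibroblast genes 2 were higher, a share near that of all genes, and of 6 oligodendroglia and Schwann cell genes and 6 microglia genes none passed.

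Genes with a profile over the 16 libraries like that of a member were found by the root mean square (RMS) difference of centred log2(CPM + 0.5) values, among tested genes with a mean of at least 1 CPM. The likest genes were Glra2, a glycine receptor subunit, for Lhx1 (RMS difference 0.26), Syn1, which encodes synapsin of synaptic vesicles, for Lhx5 (0.17), Map11 for Pax2 (0.24) and Nrsn2 for Pax8 (0.17). For Lbx1 it was Chga (0.24), for Lmx1b Tmem25 (0.30), for Gata3 Fam214a (0.34), for Tlx3 Cpne7 (0.37), for En1 Ttc39aos1 (0.22) and for Evx1 Nkx1-1 (0.49). Libraries of both compartments enter each profile, so these values describe the 16 libraries and carry no test. The members' own spread (SD of the log2 values) ran from 0.69 for Gata3 to 2.00 for Lhx1, with 0.78 for En1 and 1.01 for Evx1. A small RMS difference of a member with a small spread is therefore not a closer match. Among the members themselves, Lhx5 and Pax8 had the most similar profiles (RMS difference 0.24), closer than Lhx5 and its relative Lhx1 (0.50) or Lhx5 and Pax2 (0.43).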

How the data were processed

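RNA of 16 libraries (4 groups of 4; SMART-Seq v4 and Nextera XT, single-end reads of 100 bases) was processed by the authors with Cutadapt, STAR 2.7.2b and featureCounts 1.6.4 on GRCm39 with RefSeq annotation. Multimapping and overlapping reads were counted as fractions with a reverse-strand setting, although the kit does not mark strand. The authors deposited these values as estimated counts per gene, not normalized, and they were rounded to whole numbers here.

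Gene counts were tested with edgeR 4.0.16 (R 4.3.3) by the quasi-likelihood test with TMM factors on all 16 libraries, after the default expression filter, and p-values were adjusted by Benjamini-Hochberg over 19964 genes (threshold 0.05). The file's exon lengths gave CPM per kb, with TMM-scaled library sizes as denominators. Alternatives were DESeq2 1.42.0, other size factors and filters, fits of fewer groups, replicate blocks and leaving out each library. The paper describes the replicates as biological, and the labels name no separate animals or cultures, so p-values measure the spread between these libraries. Somatodendritic and axonal libraries of 1 genotype and number deviated together (correlation of deviations 0.105 to 0.508 for all 8 pairs, highest for the own number in each), so numbers were taken to pair compartments. Across genotypes the correlations ran from -0.046 to 0.68, the own number was highest for 3 of 8 pairs, and the numbers were not taken to pair.

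Members and gene lists were chosen with earlier results of these data known. Named were all 10 members, from each list the 3 genes of highest somatodendritic CPM where a result turned on them, and, for interneuron and motoneuron lists, the 2 called genes with the largest rise and the 2 with the largest fall. Other motoneuron genes, genes tested only through somatodendritic reads and progenitor genes with few somatodendritic reads were named for checks, outside this rule and after their values were seen. 1 gene of the lists is not reported here by name. Tests were checked on simulated data. Libraries held 22024636 to 34863923 counts. Precision followed the spread between libraries (common dispersion 0.303 in axonal and 0.0535 in somatodendritic libraries), and intervals from counts cover counting error only. Coding sequences were read from GRCm39 with the GENCODE annotation.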

Additional observations from a re-analysis of the deposited data

Results flagged for a closer look

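In 44 groups of 4 libraries (the 10 members and Hnrnpr in each group), 5 had 1 library far from the other 3 by Dixon's criterion at 95%, where chance gives about 1 in 20. Lhx5 was low in +/+ axonal replicate 3, at 2.31 CPM against 7.22 CPM in the nearest library. Evx1 was high in +/+ axonal replicate 2, at 1.95 CPM against 0.162 CPM, and in Hnrnpr-/- axonal replicate 1, at 3.49 CPM against 0.199 CPM. En1 was high in the same Hnrnpr-/- library, at 1.13 CPM against 0.0995 CPM. Hnrnpr was high in +/+ axonal replicate 2, at 422 CPM against 164 CPM.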

How the results depend on the processing

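The number of members called between compartments was 4 to 7 in +/+ over 27 alternatives and 4 to 9 in Hnrnpr-/-, where it was 8 with a replicate block shared by both genotypes and 9 without axonal replicate 1. In +/+ it was 4 without axonal replicate 3 or 4. Lhx1, Lhx5, Pax2 and Lmx1b were called in both genotypes in every alternative that gave an adjusted p. For Lhx1 DESeq2 gave none in either of its settings, for a reason that was not examined, so its call was not checked by that method. No direction turned between compartments. Library totals without TMM factors moved the median log2 fold change of all genes in +/+ from 0.07 to 0.22 and in Hnrnpr-/- from 0.00 to 0.12. Between genotypes and for the interaction 0 members were called in any alternative, and the sign changed for 57 of 258 interaction values, 21 of 256 axonal and 18 of 258 somatodendritic genotype differences, by wide margins for axonal Evx1 and En1. En1 and Evx1 were not among the genes tested in a fit of the axonal libraries alone. Under 100 counts lay behind most En1 and Evx1 values, which limits both. The cause of these changes was not tested.

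With the replicate block shared by both genotypes, the somatodendritic genotype difference was -0.037 for Lhx1, -0.024 for Lhx5 and -0.019 for Gata3, the axonal one -0.35 for Lhx5, -0.11 for Pax2, -0.31 for Pax8 and -0.011 for En1, and the interaction -0.32 for Lhx5, -0.33 for Pax8, -0.33 for Evx1 and -0.11 for Lbx1. With the culture as a block, 7 members were called in each genotype, Lbx1 in addition in +/+ and En1 and Gata3 in Hnrnpr-/-. With a term for each culture, chosen after seeing the data, the interaction was -0.11 for Lhx1, -0.65 for Lhx5, -0.17 for Pax2, -0.70 for Pax8, -0.19 for Evx1, -0.22 for En1 and -0.27 for Lbx1. Without both axonal libraries numbered 3, also chosen after seeing the data, the somatodendritic difference was -0.0039 for Lhx1 and -0.013 for Lhx5. For Lhx5 the somatodendritic and axonal differences and the interaction were -0.0043, -0.0079 and -0.0035 with RLE size factors, -0.0036, -0.0081 and -0.0045 with DESeq2, and -0.0032, -0.0072 and -0.0040 with its prior on fold changes. The interaction was -0.019, -0.019 and -0.017 for Pax8 and -0.0090, -0.0094 and -0.0091 for Lbx1 in the same 3 settings, and with library totals alone -0.023 for Lhx5, -0.048 for Pax8 and -0.042 for Lbx1.

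Leaving out 1 library at a time, the somatodendritic genotype difference ran from -0.13 to 0.100 for Lhx1, -0.10 to 0.096 for Lhx5, -0.34 to 0.038 for Pax2, -0.025 to 0.13 for Pax8 and -0.087 to 0.25 for Gata3. The axonal one ran from -0.81 to 0.70 for Lhx1, -1.08 to 0.40 for Lhx5, -0.65 to 0.61 for Pax2, -1.09 to 0.43 for Pax8, -2.97 to 3.99 for Evx1, -1.72 to 1.00 for En1, -0.55 to 0.47 for Lbx1, -0.92 to 0.28 for Lmx1b and -0.64 to 0.30 for Gata3. The interaction ran from -0.82 to 0.67 for Lhx1, -1.08 to 0.38 for Lhx5, -0.56 to 0.68 for Pax2, -1.13 to 0.37 for Pax8, -3.64 to 3.32 for Evx1, -1.49 to 1.23 for En1, -0.63 to 0.37 for Lbx1, -0.79 to 0.23 for Tlx3, -0.50 to 0.68 for Lmx1b and -0.72 to 0.22 for Gata3.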
